A study of Rattus norvegicus with 12 samples.

Results

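The 38 genes described here encode the enzymes and transporters that take up glucose, break it down to lactate and store it as glycogen. They were taken by gene symbol from a list written with earlier results of these data known. All 38 were found among the 18469 genes of the deposited count table. By role, 2 genes carry glucose into the cell, 9 act in upper glycolysis, 4 encode PFKFB regulators, 8 act in lower glycolysis, 4 handle lactate, 8 handle glycogen and 3 belong to side branches.

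RNA was sequenced from neonatal rat ventricular myocytes (NRVMs), primary heart muscle cells of newborn Sprague-Dawley rats kept in culture, in 12 libraries that form 4 groups of 3 independent replicates. The cells of the siNeg group received a negative control siRNA and no phenylephrine (PE), an agonist of the α1-adrenergic receptor that drives hypertrophic growth of these cells. The siNeg PE group received the same siRNA and then PE for 36 h, begun 12 h after transfection. The siSlc25a26 and siSlc25a26 PE groups were handled in the same 2 ways but received an siRNA against Slc25a26, the mitochondrial carrier of S-adenosylmethionine. Every group was therefore transfected, and within an arm the labels differ in PE alone. How many different siRNAs were used and which cells other than myocytes remained in the cultures was not given in the sources used here.

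The total count per library ranged from 24770972 to 28709049. Slc25a26 itself stood at 33.7, 32.2 and 29.4 CPM (counts scaled to library size) in siNeg and at 15.7, 14.7 and 14.6 CPM in siSlc25a26, a log2 fold change of -1.08 ± 0.08 (SE, edgeR adjusted p = 1.08e-05). With PE the same gene stood at 114, 106 and 86.9 CPM in siNeg PE, against 101, 104 and 98.2 CPM in those labelled siSlc25a26 PE, so the groups overlapped (log2 fold change -0.0062 ± 0.10, edgeR adjusted p = 0.969). The lower level of the targeted gene was thus seen without PE and not with PE, and each direction given below for this last group carries that limit. Nppa and Nppb, natriuretic peptide genes that mark hypertrophic growth, rose with PE by 4.63 and 5.37 on the log2 scale in the siNeg arm and by 4.52 and 5.32 in the siSlc25a26 arm.

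The labelled cell type was checked against markers. The 10 cardiomyocyte markers, among them Tnnt2, Actn2 and Ryr2, summed to 21980 to 24420 CPM in siNeg and 25180 to 26710 in siNeg PE. In siSlc25a26 and siSlc25a26 PE they summed to 19290 to 22420 and 24930 to 26220 CPM. With PE, 3 of the 10 were more than 1.5-fold higher in each arm at an edgeR adjusted p under 0.05. Of all genes, 12.4% in siNeg and 10.1% in siSlc25a26 were higher by this rule. At an edgeR adjusted p under 0.05 alone, 4 were higher and 1 lower with PE in siNeg (25.2% and 24.3% of all genes). In siSlc25a26 7 were higher and 1 lower with PE (26.4% and 26%). Against siNeg, 0 were higher and 4 lower in siSlc25a26 without PE (23.3% and 21.7% of all genes). Between the PE groups 1 was higher and 3 were lower in siSlc25a26 PE (20.1% for each direction). The study's methods for NRVMs describe a Percoll density gradient that separates myocytes from fibroblasts before culture. The 10 fibroblast markers, among them Col1a1, Col3a1 and Postn, were abundant too. They summed to 22100 to 24170 CPM in siNeg, 11980 to 12440 in siNeg PE, 12510 to 14080 in siSlc25a26 and 8779 to 9625 in siSlc25a26 PE. Single markers did not all follow these sums. With PE in each arm, 4 of the 10 were lower, 2 higher and 4 did not pass at an edgeR adjusted p under 0.05. Of all genes, 24.3% were lower and 25.2% higher in siNeg, and 26% and 26.4% in siSlc25a26. The 5 smooth muscle and mural (vessel wall) markers summed to 622 to 718 CPM in siNeg and 453 to 515 in siNeg PE. In siSlc25a26 and siSlc25a26 PE they summed to 402 to 466 and 541 to 565 CPM. Without PE all 5 were lower in siSlc25a26 than in siNeg at an edgeR adjusted p under 0.05 (21.7% of all genes). In the other comparisons the 5 markers split. With PE in siNeg, 2 were higher and 3 lower by the same rule, against 25.2% and 24.3% of all genes. With PE in siSlc25a26, 2 were higher and 1 lower, against 26.4% and 26%. Between the PE groups, 2 were higher and 3 lower in siSlc25a26 PE, against 20.1% of all genes for each direction. The 5 endothelial markers summed to at most 29.04 CPM and the 5 macrophage and leukocyte markers to at most 33.2 CPM. No marker of these lists was at 0 in all libraries. The 10 interferon response genes, which cells switch on in antiviral defence, summed to 187 to 219 CPM in siNeg and 132 to 148 CPM in siNeg PE, against 7316 to 7999 CPM in siSlc25a26 and 4376 to 4816 CPM in siSlc25a26 PE. The cardiomyocyte, fibroblast, mural and interferon sums therefore also differed between groups compared below, and their part in each result was not tested. In bulk RNA, fewer cells of a type and less RNA per cell cannot be told apart.

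Glycolysis splits glucose into pyruvate in the cytosol, through an upper part that spends ATP and a lower part that regains it, and pyruvate either enters the mitochondria or is turned into lactate and exported. Several steps are served by isozymes from separate genes, of which some are typical of striated muscle (Pfkm, Pgam2, Eno3, Pygm, Slc2a4) and others are found in most tissues. The healthy adult heart burns mainly fatty acids, while the neonatal and the overloaded heart lean more on glucose, and glycogen serves the myocyte as a reserve of glucose units.

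Promoter sequences, from RefSeq on the rat build GRCr8, are shown for 5 genes on which the results below turn: the lactate transporter genes Slc16a1 and Slc16a3, which both rose with PE, the phosphofructokinase genes Pfkm and Pfkp, which moved in opposite directions, and Aldoc, whose response to PE differed most between the siRNA arms. Each window runs from 250 bases before to 50 bases after the annotated start, 5′ to 3′, and all 5 lie on the plus strand. Capitals mark ACGTG and GCGTG, the core letters of hypoxia response elements, on either strand (their reverse complements read CACGT and CACGC), and CACGTG, the E-box, which itself holds ACGTG on both strands.
Slc16a1, chr2:194812410-194812709: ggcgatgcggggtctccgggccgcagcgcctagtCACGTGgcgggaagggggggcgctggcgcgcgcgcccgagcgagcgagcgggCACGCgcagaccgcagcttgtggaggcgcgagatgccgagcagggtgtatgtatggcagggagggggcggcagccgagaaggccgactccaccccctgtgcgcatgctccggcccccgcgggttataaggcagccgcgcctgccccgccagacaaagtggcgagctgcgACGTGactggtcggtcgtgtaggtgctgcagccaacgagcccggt
Slc16a3, chr10:106712078-106712377: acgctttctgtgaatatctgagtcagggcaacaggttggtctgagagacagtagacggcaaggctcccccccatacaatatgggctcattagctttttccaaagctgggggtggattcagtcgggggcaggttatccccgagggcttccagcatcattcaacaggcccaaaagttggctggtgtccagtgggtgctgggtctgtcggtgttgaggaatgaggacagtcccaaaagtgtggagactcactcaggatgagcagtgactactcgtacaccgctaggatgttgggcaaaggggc
Pfkm, chr7:131113849-131114148: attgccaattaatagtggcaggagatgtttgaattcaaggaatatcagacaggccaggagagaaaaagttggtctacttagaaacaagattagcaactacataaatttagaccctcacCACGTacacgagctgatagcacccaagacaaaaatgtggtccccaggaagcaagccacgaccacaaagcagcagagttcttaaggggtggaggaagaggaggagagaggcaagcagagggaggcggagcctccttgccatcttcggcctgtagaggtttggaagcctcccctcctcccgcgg
Pfkp, chr17:68639563-68639862: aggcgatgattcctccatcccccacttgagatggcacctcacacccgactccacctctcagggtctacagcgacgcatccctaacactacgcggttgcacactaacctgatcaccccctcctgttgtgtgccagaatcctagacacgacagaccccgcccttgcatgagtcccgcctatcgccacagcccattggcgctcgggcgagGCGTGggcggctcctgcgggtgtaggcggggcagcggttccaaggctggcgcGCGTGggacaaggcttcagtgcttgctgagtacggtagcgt
Aldoc, chr10:63715294-63715593: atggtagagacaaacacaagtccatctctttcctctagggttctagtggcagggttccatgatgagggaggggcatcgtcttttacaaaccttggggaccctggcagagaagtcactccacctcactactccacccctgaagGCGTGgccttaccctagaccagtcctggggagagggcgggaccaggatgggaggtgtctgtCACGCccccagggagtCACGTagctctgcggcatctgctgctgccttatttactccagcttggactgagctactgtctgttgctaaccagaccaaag

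In these letters the windows of the 5 genes were unlike each other. The Slc16a1 window held an E-box at position -216 from the start, a GCGTG at -164 and a separate ACGTG at position 6. The Slc16a3 window held none of the 3 motifs. The Pfkm window held a single ACGTG and no GCGTG, and the Pfkp window held GCGTG at positions -43 and 10 and no ACGTG. The Aldoc window held ACGTG at position -31 and GCGTG at -108 and -47. Of the 38 genes, 35 had a window and some had more than 1, which gave 39 windows, and Slc2a4, Pgk1 and Gpd1 had none. ACGTG was present in 19 of the 39 windows (48.7%) and in 19.3% of the 33469 windows of the whole table, GCGTG in 15 (38.5%) against 29.7%, and CACGTG in 4 (10.3%) against 6.42%. The members' windows were also richer in G and C, with a median of 60.7% against 51.7%, and the part of base composition in these shares was not tested. The 4 windows with an E-box were those of Pfkfb3, Ldha, Slc16a1 and Gyg1.

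Levels were compared between genes only per length, as FPKM (fragments scaled by gene length and library size). Gapdh, which oxidises glyceraldehyde 3-phosphate, had the highest mean over all libraries at 3578 FPKM, followed by Aldoa at 1585, Ldhb at 1088, Ldha at 846 and Eno1 at 839 FPKM. At the other end Pfkfb1 averaged 0.327 FPKM, with as few as 8 counts in 1 library, and Pfkfb4, Pfkfb2, Gpd2 and Pygl lay between 1.11 and 2.32 FPKM. The 38 genes took 1.94% ± 0.042 (SD, n = 3) of the counts in siNeg, 2.13% ± 0.068 in siNeg PE, 1.81% ± 0.026 in siSlc25a26 and 1.90% ± 0.078 in siSlc25a26 PE. Counts of Aldoa, Tpi1, Gapdh, Eno1, Eno2, Gys1 and Ugp2 were not whole numbers in any of the 12 libraries, and those of Pkm and Ldha in 11, as happens when a counting program divides reads between genes or copies, so the values of these 9 genes are uncertain to that extent.

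In the siNeg arm PE raised the lactate transporter genes Slc16a3 and Slc16a1, the glycogen primer gene Gyg1, the muscle enolase gene Eno3 and the platelet-type phosphofructokinase gene Pfkp, and lowered Gpd1, Pygb and Pfkfb3. These 8 genes were called, which here means more than 1.5-fold with an adjusted p under 0.05 by edgeR's quasi-likelihood test over all genes. The 5 higher members are 13.2% of 38, against 12.4% of all genes called higher, and the 3 lower members are 7.89%, against 8.24% of all genes called lower, so at this threshold the shares were near those of the whole transcriptome. At an adjusted p under 0.05 with no limit on the fold, 15 members rose (39.5%, against 25.2% of all genes) and 9 fell (23.7%, against 24.3%), and 14 did not pass. The median log2 fold change of the 38 genes was 0.033, beside 0.00016 for all genes tested. Passing with no limit on the fold also depends on the number of counts, and the 38 genes were not matched to genes of like level. Below, "rose" and "fell" refer to an adjusted p under 0.05 at any fold.

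In the siSlc25a26 arm PE changed more of the genes. There 8 members were called higher (21.1%, against 10.1% of all genes) and 6 lower (15.8%, against 10.4%). At any fold 18 rose (47.4%, against 26.4% of all genes) and 9 fell (23.7%, against 26%). The median log2 fold change was 0.18 for the 38 genes and -0.0036 for all genes. All 8 genes called in siNeg were called in the same direction in siSlc25a26, and Pgm1, Slc2a4 and Gbe1 (higher) and Aldoc, Pfkm and Pgam2 (lower) were called in addition. A call in 1 arm alone does not show that the arms differ, and the test of that difference is given further on.

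**Figure D1:**
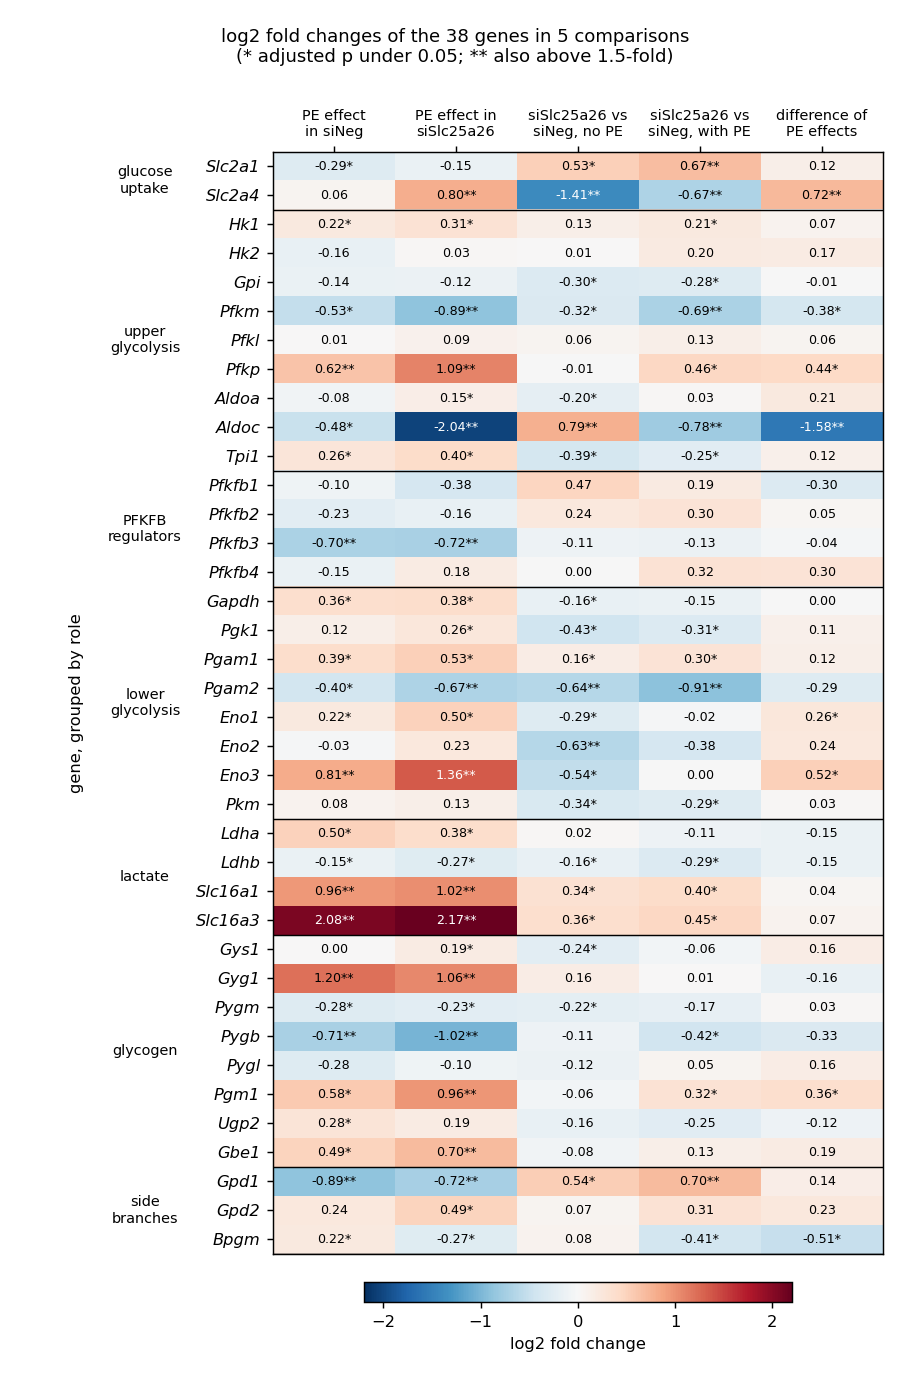
Log2 fold changes of the 38 genes (rows, grouped by role) in the 4 comparisons and in the difference between the PE effects of both arms (columns). Red is higher and blue lower, 1 star marks an adjusted p under 0.05 and 2 stars a fold above 1.5 as well. The darkest cells are the rise of Slc16a3 with PE in both arms (2.08 and 2.17) and the fall of Aldoc with PE in siSlc25a26 (-2.04).

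Both lactate transporter genes rose with PE. Slc16a3, which had the largest PE effect of the 38 genes in each arm, encodes MCT4, a monocarboxylate transporter typical of cells that export lactate. It was measured at 27.6, 26.9 and 30.8 CPM in siNeg and at 126, 123 and 111.5 CPM in siNeg PE, a 4.22-fold rise (log2 fold change 2.08 ± 0.076, edgeR adjusted p = 2.96e-06). The siSlc25a26 libraries held 35.7, 35.4 and 38.8 CPM and the siSlc25a26 PE libraries 169, 159 and 161 CPM (log2 fold change 2.17 ± 0.057, edgeR adjusted p = 2.72e-08). Every PE library thus stood far above every library without PE, and the difference between the PE effects was 0.069 ± 0.097 (edgeR adjusted p = 0.689). Slc16a1 encodes MCT1, which carries lactate in either direction. It stood at 250.1, 269.8 and 266 CPM in siNeg, 518, 502 and 504 in siNeg PE, 322, 332 and 339.5 in siSlc25a26 and 677, 654 and 659 in siSlc25a26 PE. No groups overlapped, with a PE effect of 0.96 ± 0.05 in siNeg and 1.02 ± 0.045 in siSlc25a26 on the log2 scale (edgeR adjusted p = 9.24e-06 and 4.03e-07). Per length, Slc16a1 made up 86.3% ± 0.858 (SD, n = 3) of the summed FPKM of both transporters in siNeg and 74.3% ± 1.06 in siNeg PE, and 86% ± 0.304 and 73.5% ± 0.336 in siSlc25a26 without and with PE, so it stayed the more abundant of the pair while Slc16a3 gained.

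The lactate dehydrogenase genes moved in opposite directions. Ldha encodes the subunit that prevails in glycolytic tissue, and its level was 1130, 1091 and 1067 CPM in siNeg and 1665, 1558 and 1434 CPM in siNeg PE (0.50 ± 0.063 on the log2 scale, edgeR adjusted p = 0.000468). In the other arm it was 1110, 1119 and 1099 CPM without and 1484, 1426 and 1365 CPM with PE (0.38 ± 0.047, edgeR adjusted p = 0.000177), so it rose in both arms at less than 1.5-fold. Ldhb, the subunit that prevails in the oxidative heart, fell with PE from 1541, 1594 and 1502 CPM to 1465, 1351 and 1362 CPM in the siNeg arm (-0.15 ± 0.053, edgeR adjusted p = 0.0451). It fell from 1341, 1362 and 1439 CPM to 1194, 1137 and 1052 CPM in the siSlc25a26 arm (-0.27 ± 0.057, edgeR adjusted p = 0.00339). Per length, Ldha made up 36.9% ± 0.806 (SD, n = 3) of the summed Ldha and Ldhb FPKM in siNeg and 47.9% ± 1.22 in siNeg PE, and 39.8% ± 1.09 in siSlc25a26 and 51% ± 0.578 in siSlc25a26 PE. The 2 subunits were thus near equal under PE in both arms, and no libraries with and without PE overlapped in this share.

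**Figure D2:**
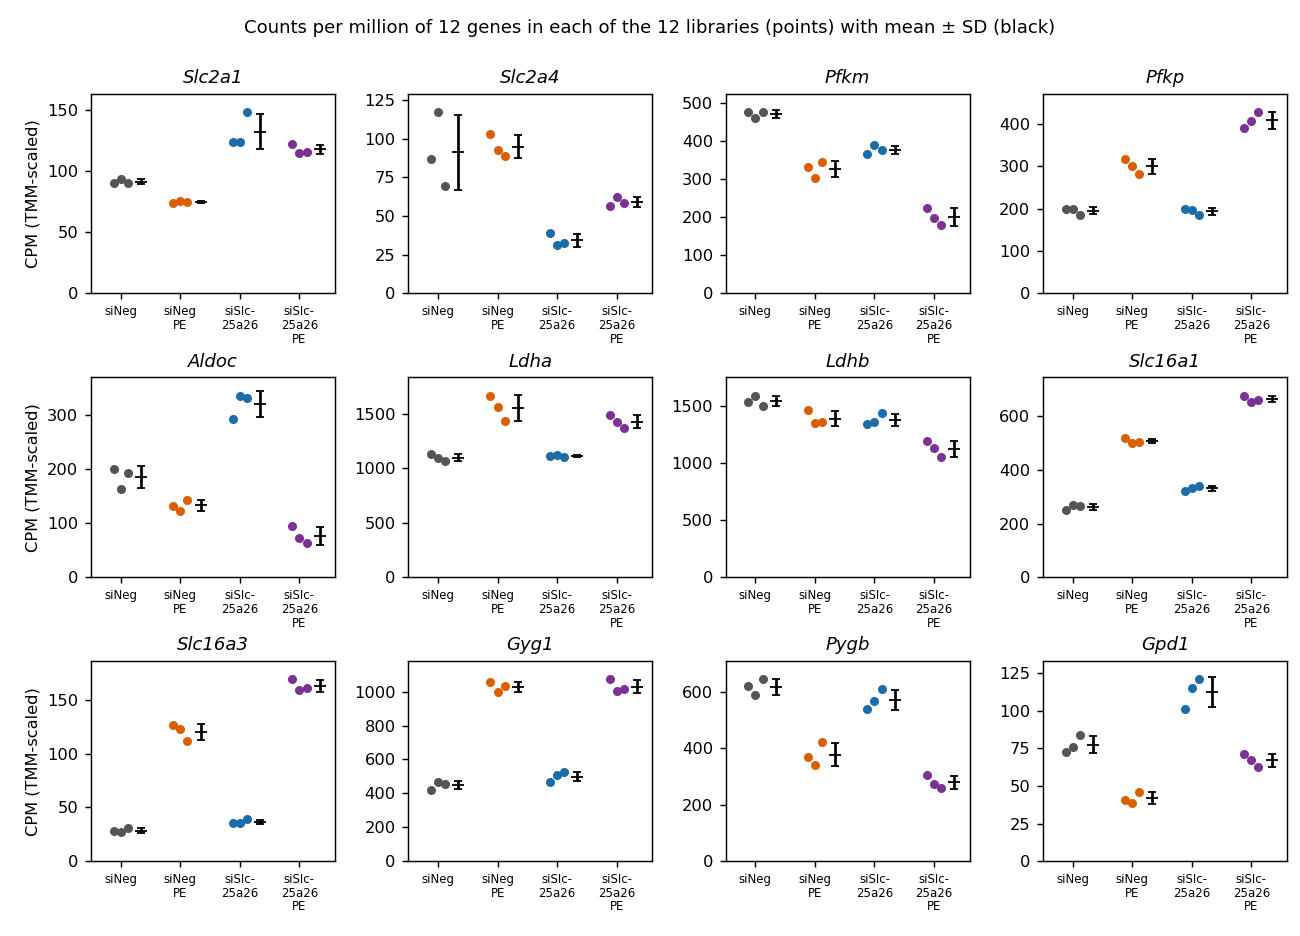
CPM of 12 genes (y axis, from 0) in each of the 12 libraries by group (points), with the mean ± SD of the 3 libraries in black. Slc16a1, Slc16a3 and Gyg1 are higher and Pfkm, Pygb and Gpd1 lower in the PE libraries of both arms, and Aldoc lies between 292 and 336 CPM in siSlc25a26 but between 62.5 and 94.4 CPM in siSlc25a26 PE.

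Among the genes of upper glycolysis, Pfkm fell and Pfkp rose with PE in both arms. Phosphofructokinase commits the sugar to glycolysis, and Pfkm is the form of muscle. Pfkm stood at 476, 459 and 475 CPM in siNeg and 332, 303 and 344 CPM in siNeg PE, which do not overlap (-0.53 ± 0.06 on the log2 scale, edgeR adjusted p = 0.000312). In siSlc25a26 it stood at 365, 388 and 375 CPM, and at 225, 198 and 179 CPM with PE (-0.89 ± 0.077, edgeR adjusted p = 2.11e-05), a fall to the lowest values of the 4 groups. Pfkp, the form first known from platelets, went the other way. It rose from 199.7, 199.9 and 185 CPM to 318, 301 and 282 CPM in the siNeg arm (0.62 ± 0.058, edgeR adjusted p = 0.000119). The siSlc25a26 libraries without PE held 200, 197 and 185 CPM, which overlapped siNeg, and those with PE held 389.8, 406 and 428.5 CPM (1.09 ± 0.057, edgeR adjusted p = 9.55e-07). Pfkl, the liver form, gave log2 values of 0.0076 ± 0.055 and 0.091 ± 0.057 and did not pass in any comparison.

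The phosphofructokinase pool therefore changed its make-up. Pfkm supplied 62.4, 62.1 and 63.8% of the family's summed FPKM in the siNeg libraries and 45.5, 44.8 and 48.7% with PE, while Pfkp supplied 24.8, 25.6 and 23.3% and then 41.2, 41.6 and 37.7%. In siSlc25a26 the Pfkm share was 56, 58.1 and 57.7% and with PE 32.2, 29.1 and 26.3%, and the Pfkp share was 28.8, 27.6 and 26.8% and with PE 52.1, 55.8 and 59.4%. Pfkm was the leading form in all libraries except those labelled siSlc25a26 PE, where Pfkp led in 3 of 3. The difference in the mean Pfkm share with PE was -16.4 percentage points in the siNeg arm and -28.1 in the siSlc25a26 arm. An exact two-sided permutation test of 3 against 3 libraries gave p = 0.1 for each, which is the smallest value such a test allows, so the shares cannot pass a threshold of 0.05.

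Of the hexokinase genes only Hk1 passed with PE. Hk1, the main hexokinase here, stood at 435, 397 and 420.0 CPM in siNeg, 511, 477 and 468 in siNeg PE, 464, 446 and 456 in siSlc25a26 and 580.0, 535 and 559 in siSlc25a26 PE, and it rose with PE in both arms (0.22 ± 0.058 and 0.31 ± 0.048, edgeR adjusted p = 0.0143 and 0.000597). Hk1 made up between 91.1% and 94.2% of the summed Hk1 and Hk2 FPKM in every library, and Hk2, the insulin-regulated form, did not pass with PE in either arm. Tpi1, the triose phosphate isomerase gene, rose with PE in both arms (0.26 and 0.40). Gpi, the glucose 6-phosphate isomerase gene, gave -0.14 ± 0.053 and -0.12 ± 0.054 and did not pass with PE.

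Aldolase splits fructose 1,6-bisphosphate, and Aldoa is its muscle form and Aldoc the form first known from brain. Aldoc stood at 201, 163 and 193 CPM in siNeg and at 132, 123 and 144 CPM in siNeg PE (-0.48 ± 0.094 on the log2 scale, edgeR adjusted p = 0.00388). It stood at 292, 336 and 332 CPM in siSlc25a26 and at 94.4, 73.5 and 62.5 CPM in siSlc25a26 PE, a 4.11-fold fall (-2.04 ± 0.13, edgeR adjusted p = 3.46e-06). The siSlc25a26 libraries were the highest of all without PE and the lowest of all with PE, and no groups overlapped. Aldoa stood at 2398, 2277 and 2209 CPM in siNeg, 2347, 2082 and 2068 in siNeg PE, 2079, 2002 and 1919 in siSlc25a26 and 2328, 2132 and 2121 in siSlc25a26 PE. Its PE effect of 0.15 ± 0.054 in siSlc25a26 passed (edgeR adjusted p = 0.0421) and took the opposite sign on the FPKM scale (-0.024, adjusted p 0.759 and 0.773 with 2 pseudocounts). Aldoa held most of the aldolase FPKM throughout, from a mean of 87.3% in siSlc25a26 to 96.9% in siSlc25a26 PE.

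Of the 4 PFKFB genes, which encode the enzymes that make and break down fructose 2,6-bisphosphate, the strongest activator of phosphofructokinase, only Pfkfb3 passed in any comparison. Pfkfb3 stood at 22.4, 19.4 and 22.3 CPM in siNeg and 13, 12.7 and 13.6 CPM in siNeg PE (-0.70 ± 0.092, edgeR adjusted p = 0.000596). It stood at 21.0, 19.7 and 18.6 CPM in siSlc25a26 and 10.8, 12.2 and 12.5 CPM in siSlc25a26 PE (-0.72 ± 0.088, edgeR adjusted p = 0.00017), so it fell by a like amount in both arms and the PE libraries lay below all others. Pfkfb2, the heart form, ranged from 7.51 to 12.4 CPM over the 12 libraries. Pfkfb1 and Pfkfb4 stayed under 4.1 CPM in each.

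In lower glycolysis PE raised Gapdh, Pgam1, Eno1 and Eno3 in both arms, and Pgk1 in siSlc25a26, and lowered Pgam2. Eno3, the muscle enolase gene, had the largest change, from 140.1, 150.3 and 122 CPM in siNeg to 262, 233 and 229 CPM in siNeg PE (0.81 ± 0.082, edgeR adjusted p = 0.000165). In the other arm it went from 105, 90.2 and 89.0 CPM to 249.8, 240.5 and 228 CPM (1.36 ± 0.072, edgeR adjusted p = 1.05e-06). The PE groups overlapped, and the siSlc25a26 libraries without PE were the lowest. Eno1, the enolase of most tissues, stood at 1426, 1315 and 1324 CPM in siNeg, 1658, 1554 and 1526 in siNeg PE, 1105, 1092 and 1122 in siSlc25a26 and 1619, 1510 and 1504 in siSlc25a26 PE. Its share of the enolase FPKM was 87.4% ± 1.06 in siNeg and 83.1% ± 0.244 in siNeg PE, and 89.3% ± 0.467 and 83.3% ± 0.145 in the siSlc25a26 arm, with Eno3 taking up most of the rest. Gapdh rose by 0.36 and 0.38 on the log2 scale in the siNeg and siSlc25a26 arms.

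The phosphoglycerate mutase genes also moved apart. Pgam1, the form of most tissues, stood at 363.5, 333 and 329 CPM in siNeg and 477, 448 and 414 CPM in siNeg PE, and at 387, 389 and 372 and 563, 549 and 525 CPM in siSlc25a26 without and with PE. It rose with PE by 0.39 ± 0.066 and 0.53 ± 0.048 (edgeR adjusted p = 0.00204 and 2.61e-05). Pgam2, the muscle form, stood at 87.8, 90.4 and 81.7 CPM in siNeg, 72.3, 61.4 and 62.6 in siNeg PE, 55.9, 56.4 and 54.8 in siSlc25a26 and 40.2, 34.1 and 29.4 in siSlc25a26 PE. It fell with PE by -0.40 ± 0.072 and -0.67 ± 0.1 (edgeR adjusted p = 0.00251 and 0.000516), and no groups overlapped. The Pgam1 share of the family's FPKM was 62% ± 1.43 in siNeg, 73.8% ± 1.11 in siNeg PE, 73.8% ± 0.202 in siSlc25a26 and 86.7% ± 1.41 in siSlc25a26 PE. Muscle forms did not move as a group under PE, since Pfkm, Pgam2 and Pygm fell while Eno3 rose in both arms.

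**Figure D3:**
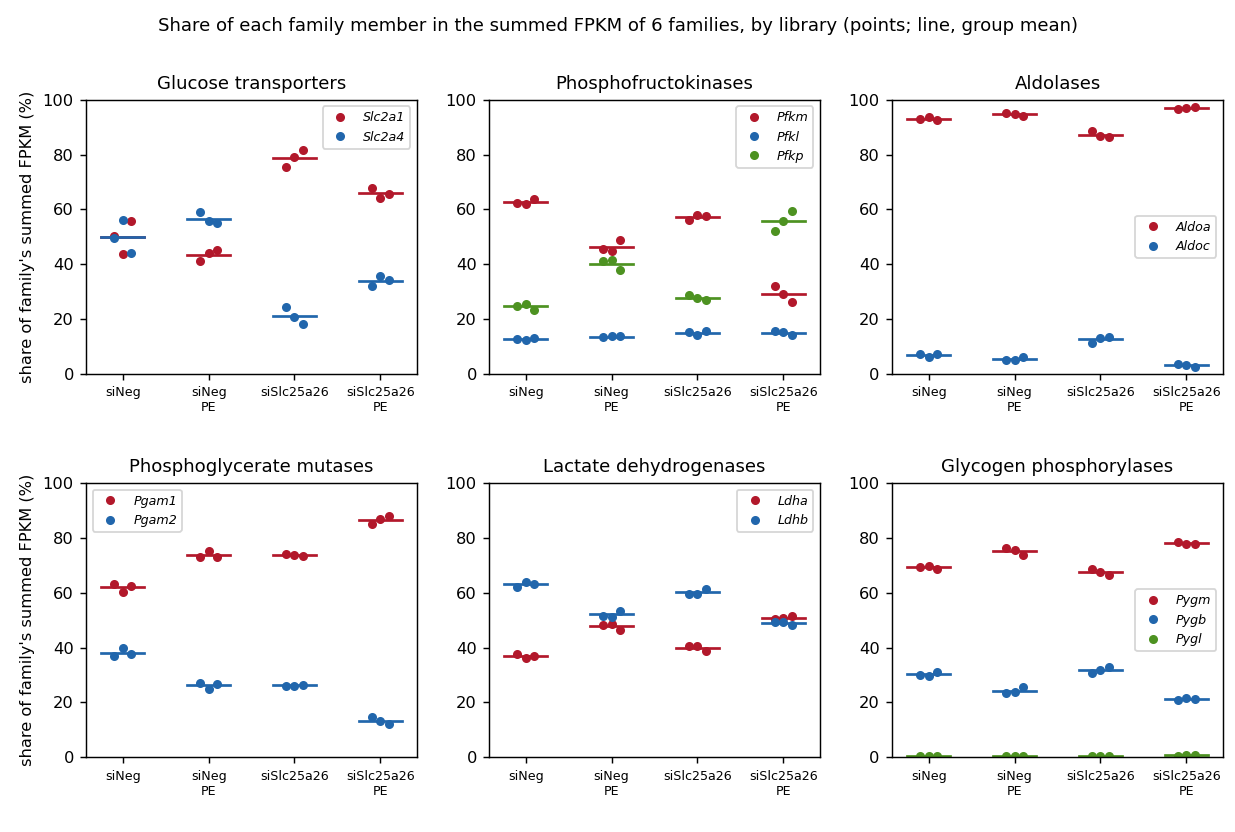
Share of each isozyme in the summed FPKM of its family (y axis, percent) for 6 families, with 1 point per library and a line at each group mean. Under PE, Pfkp and Ldha gain and Pfkm and Ldhb lose in both arms, the Pgam1 share rises to 86.7% in siSlc25a26 PE, and Slc2a1 holds 64.3% to 81.7% of the glucose transporter FPKM in the siSlc25a26 libraries against 41% to 55.8% in the siNeg libraries.

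The glycogen genes that changed most with PE stand at the start of synthesis and at breakdown. Gyg1 encodes glycogenin, the protein on which a new glycogen chain is begun. Its level was 421, 464 and 456 CPM in siNeg and 1056, 998.5 and 1033 CPM in siNeg PE, 2.3-fold higher (1.20 ± 0.055, edgeR adjusted p = 5.59e-06). In the other arm the values were 467, 506 and 524 CPM without and 1072, 1002 and 1013 CPM with PE (1.06 ± 0.056, edgeR adjusted p = 1.06e-06), so the PE groups overlapped each other. Gbe1, the branching enzyme gene, stood at 44.8, 48.0 and 49.5 CPM in siNeg, 67.7, 65.3 and 66.2 in siNeg PE, 42.3, 46.0 and 46.7 in siSlc25a26 and 67.8, 70.0 and 78.2 in siSlc25a26 PE (0.49 ± 0.059 and 0.70 ± 0.072 with PE, edgeR adjusted p = 0.000413 and 6.01e-05). Pgm1, whose enzyme links glucose 6-phosphate with glucose 1-phosphate, stood at 185, 178.5 and 169 CPM in siNeg and 292, 262 and 239 CPM in siNeg PE (0.58 ± 0.073, edgeR adjusted p = 0.000516). In siSlc25a26 it stood at 167, 169.6 and 174 CPM, and at 341, 318 and 322.5 CPM with PE (0.96 ± 0.048, edgeR adjusted p = 7.58e-07). Every PE library exceeded every library without PE for these 3 genes.

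Glycogen phosphorylase releases glucose 1-phosphate from the stored chain. Pygb, its brain form, stood at 619.6, 589 and 643 CPM in siNeg and 369.9, 339 and 421 CPM in siNeg PE (-0.71 ± 0.085, edgeR adjusted p = 0.000371), and at 538, 565.5 and 609 and 304, 274 and 258 CPM in siSlc25a26 without and with PE (-1.02 ± 0.071, edgeR adjusted p = 5.52e-06). Pygm, the muscle form, stood at 1044, 1013 and 1043 CPM in siNeg, 885, 790.4 and 881 in siNeg PE, 878, 879.5 and 902.5 in siSlc25a26 and 833, 725.5 and 689 in siSlc25a26 PE. Pygm fell with PE as well, by a smaller amount (-0.28 ± 0.059 and -0.23 ± 0.068, edgeR adjusted p = 0.00569 and 0.0206), and its share of the family's FPKM was 69.3% ± 0.637 in siNeg and 75.2% ± 1.32 in siNeg PE. Pygl, the liver form, stayed between 5.1 and 6.93 CPM and did not pass with PE. Gys1, the glycogen synthase gene of muscle, gave 0.0028 in siNeg, which did not pass, and rose by 0.19 in siSlc25a26. Ugp2, which makes the UDP-glucose that synthase uses, rose by 0.28 in siNeg and gave 0.19 in siSlc25a26, which did not pass.

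Gpd1 encodes the cytosolic glycerol 3-phosphate dehydrogenase, which branches off at the triose phosphates. It stood at 72.9, 75.9 and 83.8 CPM in siNeg and 40.8, 38.6 and 46.2 CPM in siNeg PE (-0.89 ± 0.087, edgeR adjusted p = 0.000154), and at 101, 115 and 121 and 71.5, 67.4 and 62.8 CPM in siSlc25a26 without and with PE (-0.72 ± 0.077, edgeR adjusted p = 7.07e-05). The order of the groups was siSlc25a26, siNeg, siSlc25a26 PE and siNeg PE, and neighbours in this order did not overlap. Gpd2, its mitochondrial partner, ranged from 8.42 to 15.0 CPM and rose with PE in siSlc25a26 (0.49 ± 0.12, edgeR adjusted p = 0.00938).

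Without PE, siSlc25a26 differed from siNeg in 4 called genes. Called higher was Aldoc, 1 of 38 genes (2.63%, against 8.92% of all genes), and called lower were Slc2a4, Pgam2 and Eno2 (7.89%, against 7.2% of all genes). At any fold 6 members were higher (15.8%, against 23.3%) and 15 lower (39.5%, against 21.7%), with a median log2 difference of -0.093 beside 0.015 for all genes. In lower glycolysis 7 of the 8 genes fell and Pgam1 rose by 0.16. Among the lower genes Pgk1 had a log2 difference of -0.43 ± 0.048, Eno3 of -0.54 ± 0.089, Pkm of -0.34 ± 0.048 and Gapdh of -0.16 ± 0.052. The fibroblast list moved in the same comparison, with 6 of its 10 genes called lower, and 9 of the 9 interferon genes tested were called higher.

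Slc2a4 encodes GLUT4, the insulin-regulated glucose transporter of muscle. It stood at 86.8, 117.5 and 69.6 CPM in siNeg and at 39.1, 31.6 and 32.5 CPM in siSlc25a26, 2.65-fold lower (-1.41 ± 0.17, edgeR adjusted p = 0.00025). With PE it stood at 103, 92.7 and 88.7 CPM in siNeg PE and 56.4, 62.3 and 58.7 CPM in siSlc25a26 PE (-0.67 ± 0.081, edgeR adjusted p = 0.000283). The siSlc25a26 libraries were below the siNeg libraries at either state, while siNeg libraries with and without PE overlapped, and those without PE were the most widely spread. Slc2a1, which encodes GLUT1, the transporter of most dividing and fetal cells, went the opposite way. It stood at 90.4, 93.7 and 90.4 CPM in siNeg and 124, 124 and 149 CPM in siSlc25a26 (0.53 ± 0.074, edgeR adjusted p = 0.000522). With PE the values were 73.8, 75.5 and 74.6 CPM in siNeg PE and 122, 115 and 116 CPM in siSlc25a26 PE (0.67 ± 0.057, edgeR adjusted p = 3.36e-05), again without overlap. As a share of the summed FPKM of both transporters, Slc2a1 held 50.3, 43.7 and 55.8% in the siNeg libraries and 75.5, 79.3 and 81.7% in siSlc25a26, and 41, 44.2 and 45% and 67.9, 64.3 and 65.8% in the PE groups (exact permutation p = 0.1 for each pair, the smallest possible).

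The other genes called without PE belong to glycolysis itself. Aldoc differed by 0.79 ± 0.086 without PE (edgeR adjusted p = 0.000129), and Pgam2 by -0.64 ± 0.054 (edgeR adjusted p = 2.85e-05). Eno2, the neuronal enolase gene, stood at 36.3, 36.1 and 36.4 CPM in siNeg and 14.7, 29.01 and 26.5 CPM in siSlc25a26 (-0.63 ± 0.2, edgeR adjusted p = 0.0316). Its siSlc25a26 libraries scattered widely, and the adjusted p was above 0.05 in 6 of 15 other settings (range 0.00781 to 0.0877), among them DESeq2 and the fits without siNeg replicate 1 or 2. In the PE groups Eno2 stood at 29.9, 43.4 and 33.0 CPM and 34.7, 16.0 and 30.6 CPM, which overlap.

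With PE, the libraries labelled siSlc25a26 PE differed from siNeg PE in 6 called genes. Slc2a1 and Gpd1 were higher (2 of 38, 5.26%, against 7.71% of all genes) and Pgam2, Aldoc, Pfkm and Slc2a4 lower (4 of 38, 10.5%, against 8.1%). At any fold 8 members were higher (21.1%, against 20.1%) and 11 lower (28.9%, against 20.1%), and the median log2 difference was -0.012 beside -0.0028 for all genes. Gpd1 differed by 0.70 ± 0.081 (edgeR adjusted p = 0.000236) and Pfkm by -0.69 ± 0.086 (edgeR adjusted p = 0.000346). Pgam2 differed by -0.91 ± 0.12 and Aldoc by -0.78 ± 0.13 (edgeR adjusted p = 0.000377 and 0.00164). Aldoc was thus higher in siSlc25a26 than in siNeg without PE and lower with PE. Slc16a1 and Slc16a3 were higher in siSlc25a26 at either state, by 0.34 and 0.36 without PE and 0.40 and 0.45 with PE, below the 1.5-fold limit. In this comparison Slc25a26 itself did not differ, 4 of the 10 fibroblast genes were called lower and 1 higher, and 9 of the 10 interferon genes were called higher.

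The PE effects of the 2 arms were compared in 1 fit of all 12 libraries, as the effect in siSlc25a26 minus the effect in siNeg. Slc2a4 was called on the higher side (1 of 38, 2.63%, against 2.16% of all genes) and Aldoc on the lower side (1 of 38, 2.63%, against 3.34%). At any fold 5 members had a higher effect in siSlc25a26 (13.2%, against 5.48%) and 3 a lower one (7.89%, against 5.73%), and the median was 0.070 beside -0.045 for all genes. Aldoc differed by -1.58 ± 0.18 (edgeR adjusted p = 0.000361), and this call held in all 20 other settings. Slc2a4 differed by 0.72 ± 0.21 (edgeR adjusted p = 0.0423), since PE gave 0.059 ± 0.16 in siNeg and 0.80 ± 0.088 in siSlc25a26. That call was lost in 12 of 20 settings (adjusted p from 0.00446 to 0.113), 9 of them fits that left out a single library.

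Of the genes past the adjusted p alone, Pfkp (0.44 ± 0.083), Eno3 (0.52 ± 0.12), Pgm1 (0.36 ± 0.092) and Eno1 (0.26 ± 0.075) rose more with PE in siSlc25a26, and Pfkm (-0.38 ± 0.1) fell more there. The edgeR adjusted p was 0.00505 for Pfkp, 0.0151 for Eno3, 0.0257 for Pgm1, 0.0452 for Eno1 and 0.0346 for Pfkm. Bpgm, whose enzyme makes 2,3-bisphosphoglycerate, rose with PE in siNeg (0.22 ± 0.072) and fell in siSlc25a26 (-0.27 ± 0.08), a difference of -0.51 ± 0.11 (edgeR adjusted p = 0.00984). It stood at 39.4, 39.5 and 40.6 CPM in siNeg, 45.5, 43.3 and 50.2 in siNeg PE, 40.0, 41.3 and 45.5 in siSlc25a26 and 37.9, 34.0 and 32.1 in siSlc25a26 PE. For Pfkp and Bpgm the difference passed in all 20 other settings, and for Eno3 in all but 1 (limma on log2(FPKM + 0.1), adjusted p = 0.0646). For the other 3 genes the adjusted p was above 0.05 in many of the 20 settings, in 13 for Eno1 (up to 0.198), 9 for Pfkm (up to 0.0886) and 8 for Pgm1 (up to 0.0864). Of these, 10, 9 and 6 were fits that left out a single library.

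**Figure D4:**
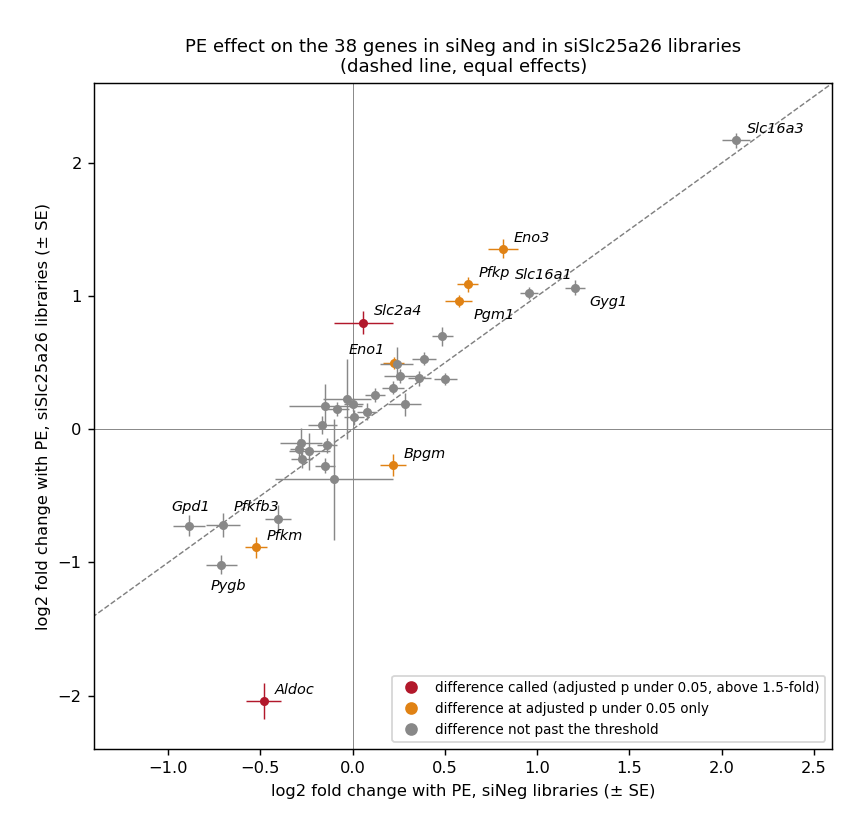
Log2 fold change with PE in the siNeg libraries (x axis) and in the siSlc25a26 libraries (y axis) for the 38 genes, with standard errors as bars and a dashed line where both effects are equal. The 2 axes use separate libraries. Aldoc lies farthest below the line (-0.48 against -2.04) and Slc2a4 above it (0.059 against 0.80), while Slc16a3, Slc16a1 and Gyg1 lie near it.

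Genes of the neighbouring pathways were counted from lists outside the 38. In the hexosamine pathway, which draws on fructose 6-phosphate to make UDP-N-acetylglucosamine, PE was followed by calls of 2 of 7 genes in siNeg, Gfpt2 (0.89) and Uap1 (1.09), and of 4 of 7 in siSlc25a26, Gfpt2 (1.19), Uap1 (1.51), Pgm3 (0.87) and Gfpt1 (0.66), all higher. Of all genes 12.4% and 10.1% were called higher in these comparisons. Their median log2 fold change with PE was 0.40 in siNeg and 0.66 in siSlc25a26. In the pentose phosphate pathway, which makes NADPH and ribose, 5 of 8 genes were lower in siSlc25a26 than in siNeg without PE (21.7% of all genes) and 4 of 8 with PE (20.1%), all under 1.5-fold, and Rpia was called higher in siSlc25a26 PE than in siNeg PE (0.64). Rpe was called higher with PE in siNeg (0.60).

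Of 20 genes of hypoxia and glucose sensing, 18 were tested with PE in siNeg and 19 in siSlc25a26. PE was followed by lower calls of Txnip, Adm, Ndrg1, Epas1 and Arrdc4 in both arms and of Ddit4 in siSlc25a26, and by a higher call of Egln3 in both. Lower calls thus took 5 of 18 and 6 of 19 genes, against 8.24% and 10.4% of all genes. The higher call took 1 of 18 and 1 of 19, against 12.4% and 10.1% of all genes. Txnip, whose protein restrains glucose uptake, fell by 1.68 in siNeg and 1.67 in siSlc25a26 on the log2 scale, and it was higher in siSlc25a26 than in siNeg without PE (0.75) and with PE (0.76). Vegfa was also higher in siSlc25a26, by 0.94 without and 0.67 with PE. Ndrg1 was lower there by 0.81 and 0.67, and Egln3 by 0.64 without PE.

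Of 23 other glycogen genes 21 were tested with PE. In siNeg 2 were called lower and 0 higher, against 8.24% and 12.4% of all genes. In siSlc25a26 5 were called lower and 0 higher, against 10.4% and 10.1% of all genes. Lower in both arms were Phkg1, the muscle phosphorylase kinase subunit (-0.89 in siNeg and -0.92 in siSlc25a26), and Ppp1r3b, a subunit that directs protein phosphatase to glycogen (-0.95 and -1.29). Gaa, Pgm5 and Nhlrc1 were called lower with PE in siSlc25a26 (-0.69, -0.81 and -0.76). Phkg1 was also lower in siSlc25a26 than in siNeg, by 0.95 without and 0.99 with PE, and Nhlrc1 by 0.68 with PE. Of 28 further glycolysis, galactose and lactate genes, 21 were tested with PE in each arm, with 1 called higher and 2 lower in either arm, against 12.4% and 8.24% of all genes in siNeg and 10.1% and 10.4% in siSlc25a26. The higher ones were Slc2a12 in siNeg (0.65) and Mpc1, a subunit of the mitochondrial pyruvate carrier, in siSlc25a26 (0.74). The lower ones were Hk3 (-1.28 ± 0.25) and Fbp1 (-1.21 ± 0.42, edgeR adjusted p = 0.0417) in siNeg. In siSlc25a26 they were Fbp2 (-1.88 ± 0.43) and Galm (-0.62 ± 0.086). Fbp1 and Fbp2 did not pass the filter on low counts between the PE groups, so their values are imprecise. Hk3 is a hexokinase of white blood cells. The macrophage and leukocyte markers summed to 25.2 to 33.2 CPM in siNeg and 13.2 to 14.9 CPM in siNeg PE. The part of such cells in the Hk3 values was not tested. Between the siRNA groups, Slc16a4 was called higher (1.57 ± 0.40) and Hk3 lower (-1.15 ± 0.20) without PE, and Slc16a7 lower (-1.02 ± 0.17) with PE.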

How the data were processed

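RNA-seq libraries of 12 NRVM cultures, 3 in each of 4 groups, were analysed, with groups and replicate numbers taken from the sample titles. The authors deposited expected counts per gene and, in another table, FPKM values. In each library 20.79% to 21.86% of the count values were not whole numbers, and they were rounded. The submitters' processing notes name the build Rnor_6.0 and the tools HISAT and Bowtie2, without versions. The counting program and strandedness were not given in the sources used here. Of 18469 gene IDs, 16962 matched RefSeq.

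Counts were fitted with edgeR 4.0.16 (TMM scaling, filterByExpr, quasi-likelihood F-test, R 4.3.3) over all genes with Benjamini-Hochberg adjustment. A gene was called above 1.5-fold at an adjusted p under 0.05, and standard errors came from the F statistic. Only the groups compared entered a fit, except in the difference between PE effects (all 12 libraries). CPM values are TMM-scaled. The fit was also run on simulated counts in which every gene had the same spread setting, so that check leaves out differences in spread between genes. DESeq2 1.42.0, limma 3.58.1 (voom, and log2(FPKM + 1) or log2(FPKM + 0.1)), other filters, DESeq2 size factors, a replicate block, 1 fit of all libraries, no fold limit and leaving out each library were alternatives. Isozyme shares are shares of summed FPKM, compared with exact two-sided permutation tests. The planned design assumed plain counts.

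All 38 members are accounted for, and values per library are given for members called in any comparison and for the most abundant member of each isozyme family. Bpgm and Ldha were added after their values were seen. The members, gene lists and rules were chosen with earlier results of these data known. The p-values weigh the difference between groups against the spread between their replicate libraries. The libraries of a group differed from each other by more than counting noise, and each was counted as 1 replicate. That excess cannot tell separate cultures from separate library preparations. Where the paper and the sample labels disagree, on the silenced gene and the times, the labels were followed.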

Additional observations from a re-analysis of the deposited data

Results flagged for a closer look

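For 8 genes the effect of PE differed between the siRNA arms at an adjusted p under 0.05 in edgeR's quasi-likelihood test of the difference (effect in siSlc25a26 minus effect in siNeg, log2 scale, 12 libraries). The difference was -1.58 for Aldoc (adjusted p = 0.000361), 0.72 for Slc2a4 (0.0423), 0.44 for Pfkp (0.00505), 0.52 for Eno3 (0.0151), 0.36 for Pgm1 (0.0257), 0.26 for Eno1 (0.0452), -0.38 for Pfkm (0.0346) and -0.51 for Bpgm (0.00984). In 20 other settings the adjusted p was above 0.05 in 13 for Eno1, 12 for Slc2a4, 9 for Pfkm, 8 for Pgm1, 1 for Eno3 and 0 for Aldoc, Pfkp and Bpgm, and 10, 9, 9 and 6 of those of the first 4 genes were fits without a single library. Aldoc fell in both arms, by 0.48 in siNeg and by 2.04 in siSlc25a26, and each of its 3 siSlc25a26 PE libraries lay below every other library. Bpgm rose in siNeg and fell in siSlc25a26. Slc25a26 itself did not differ between the PE groups, and the fibroblast and interferon gene sums differed between the siRNA arms, and the part of both in these differences was not tested.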

How the results depend on the processing

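Counts of called members depended most on the fold limit. Without it, higher and lower members numbered 15 and 9 with PE in siNeg, 6 and 15 for siSlc25a26 without PE, 8 and 11 under PE, 18 higher with PE in siSlc25a26, and 5 and 3 for the difference between PE effects. For siSlc25a26 without PE, limma on log2(FPKM + 1) called 1 lower, and on log2(FPKM + 0.1) 2 higher and 1 lower. For the difference between PE effects, limma-voom called 0 higher, and both FPKM fits called 0 higher and 2 lower, Slc2a4 having an adjusted p of 0.0513, 0.0912 and 0.113 in these fits. FPKM scaling moved the median of all genes to -0.13 and -0.17 (pseudocounts 1 and 0.1) for PE in siSlc25a26 and to -0.11 and -0.14 for the difference, which was not removed. Leaving out 1 library at a time gave, higher and lower, 5 to 6 and 3 to 3 with PE in siNeg, 8 to 8 and 5 to 6 with PE in siSlc25a26, 1 to 2 and 2 to 4 without PE, 2 to 2 and 4 to 4 under PE, and 0 to 2 and 1 to 1 for the difference. Without PE, 2 were lower without siNeg replicate 1 or 2, and 2 higher without siSlc25a26 replicate 1. The higher count of the difference was 2 without siNeg replicate 3 or siSlc25a26 replicate 1, 1 without siNeg PE replicate 1, and 0 without any other library. Of 99 gene results, 1 reversed, Aldoa with PE in siSlc25a26, at -0.02428 and -0.02429 on the FPKM scales, and 27 lost an adjusted p under 0.05 in some alternative, 21 of them in one other than leaving out a library. Among isozyme shares, the Hk1 difference under PE ranged from -0.0547 points (without siNeg PE replicate 3) to 0.354, and the Slc16a1 difference without PE from -0.701 to 0.132 points (without siNeg replicate 2). Whether replicate numbers pair the libraries was not settled, with same-numbered correlations from -0.0897 to 0.219. For PE in siNeg and for siSlc25a26 under PE, 4 of 6 libraries correlated best with their own number. For siSlc25a26 without PE it was 2 of 6, and for PE in siSlc25a26 0 of 6. With the replicate block the called counts, higher and lower, were 5 and 3, 1 and 3, 2 and 4, 8 and 6, and 1 and 1, as without it.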
